A study of Mus musculus with 40 samples.

Results

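The transcripts described here are those encoded by the mitochondrial genome itself: the 12S rRNA mt-Rnr1, the 16S rRNA mt-Rnr2 and the protein-coding transcripts ND1 to ND6, COX1, COX2, ATP6 and CYTB. They were chosen by gene symbol, leaving out tRNAs. Of the 15 genes that this choice names, 12 were analysed, among 20078 gene symbols in the 4 tables. COX3, ATP8 and ND4L were not analysed here. The set was built around mt-Rnr2 because of its nicotine contrast in these libraries, so its values in that contrast are given as a description, with no test, and support nothing. The other members share those libraries, so their tests are not independent of that choice.

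The libraries came from liver and from the fat pad beside the gonads (gonadal white adipose tissue, gWAT) of female and male C57BL/6J offspring. The study's title places the nicotine exposure in the father, and the labels mark each sample as nicotine or control. The tables' headers call the control columns DMSO, the solvent. The 8 groups were female gWAT nicotine and control, female liver nicotine and control, male gWAT nicotine and control, and male liver nicotine and control. Each had 5 libraries, except male gWAT control with 4 columns, whose numbers could not be matched to single labelled samples and only name columns here. No group carried a transgene or a further treatment in its labels. Age, litter and the number of fathers were not given in the sources used here, so p-values measure the spread between these libraries, which may share litters or fathers. All libraries were labelled as 1 batch.

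The mitochondrial genome is a small circle present in many copies per cell. It is transcribed from both strands by a dedicated polymerase, POLRMT, with the DNA-packaging factor TFAM, into long precursors that are cut at the tRNAs between the genes. The rRNAs form the cores of the small and the large mitochondrial ribosomal subunit, and this ribosome translates only the mitochondrial mRNAs. The ND transcripts encode subunits of complex I, CYTB the cytochrome b of complex III, COX1 and COX2 the catalytic subunits of complex IV, and ATP6 a subunit of the ATP synthase. Hepatocytes are rich in mitochondria, white adipocytes hold fewer, and brown adipocytes hold many and burn fuel through the uncoupling protein UCP1.

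The rRNA genes lie side by side on the mitochondrial chromosome, mt-Rnr1 at chrM:70-1024 and mt-Rnr2 at chrM:1094-2675 on the plus strand of GRCm38 (positions and sequences from GENCODE M21). ND1 lies at chrM:2751-3707, ND2 at chrM:3914-4951, COX1 at chrM:5328-6872, ND4 at chrM:10167-11544, ND5 at chrM:11742-13565 and CYTB at chrM:14145-15288, all on the plus strand. ND6, at chrM:13552-14070, is the single member on the minus strand and overlaps the end of ND5, so without a stated strand setting its reads and those of ND5 cannot be told apart there. The libraries read 3′ tags of polyA RNA. Reads would thus lie near the ends of the transcripts, but their positions were not examined. The ends of both rRNAs and of 3 mRNAs are printed to show which members have look-alikes among annotated nuclear transcripts, the only nuclear sequences searched. The last 60 bases of the rRNAs, which had no look-alike over that stretch in full, run 5′ to 3′:
mt-Rnr2, chrM:2616-2675: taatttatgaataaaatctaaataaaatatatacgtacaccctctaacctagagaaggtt
mt-Rnr1, chrM:965-1024: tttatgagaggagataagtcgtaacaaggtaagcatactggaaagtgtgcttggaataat
For 3 protein-coding members the last 60 aligned bases are set above those of the closest annotated nuclear pseudogene, with mismatched bases in capitals:
ND2, chrM:4892-4951: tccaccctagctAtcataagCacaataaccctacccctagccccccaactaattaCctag
Gm13339, chr2:22590024-22590083, minus strand: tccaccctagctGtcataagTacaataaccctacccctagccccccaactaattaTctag
CYTB, chrM:15228-15287: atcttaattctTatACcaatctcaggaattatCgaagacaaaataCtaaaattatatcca
Gm11410, chr4:80005072-80005131, plus strand: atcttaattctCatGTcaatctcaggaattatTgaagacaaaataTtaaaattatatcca
COX2, chrM:7634-7693: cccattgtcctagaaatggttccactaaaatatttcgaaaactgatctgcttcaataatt
Gm28661, chr1:24614885-24614944, minus strand: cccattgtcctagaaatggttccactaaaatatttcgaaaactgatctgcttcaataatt

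The ND2 stretch differed from Gm13339 at 3 bases and the CYTB stretch from Gm11410 at 5 bases, whereas COX2 and Gm28661 were identical over all 681 aligned bases. ATP6 was likewise identical to Gm10925 over 678 bases, and ND3 differed from Gm28438 at 1 of 345 bases (T3C, counted from 1 at the 5′ end of ND3). These members were the least counted: COX2 reached at most 7.21 normalized counts in any library, ATP6 4.59 and ND3 41.1. COX1 had a full-length nuclear match at 97.61% identity (Gm13340), and its last 479 bases were identical to Gm29216. It reached 6234 normalized counts and ND5 6972, against 55203 for ND1, 49815 for ND2, 78326 for ND4 and 59594 for CYTB. ND4 was identical to Gm28439 over its first 876 bases, but 78 of its last 100 bases matched the closest nuclear transcript. For mt-Rnr1 no nuclear transcript matched over 50 bases or more, and for mt-Rnr2 the best match held 39 of the last 100 bases. How the counting treated reads that map to several places is not given in the sources used here. The part of these copies in the counts of COX1, COX2, ATP6 and ND3 was not tested, and the values of ND3 and COX1 are uncertain.

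**Figure D1:**
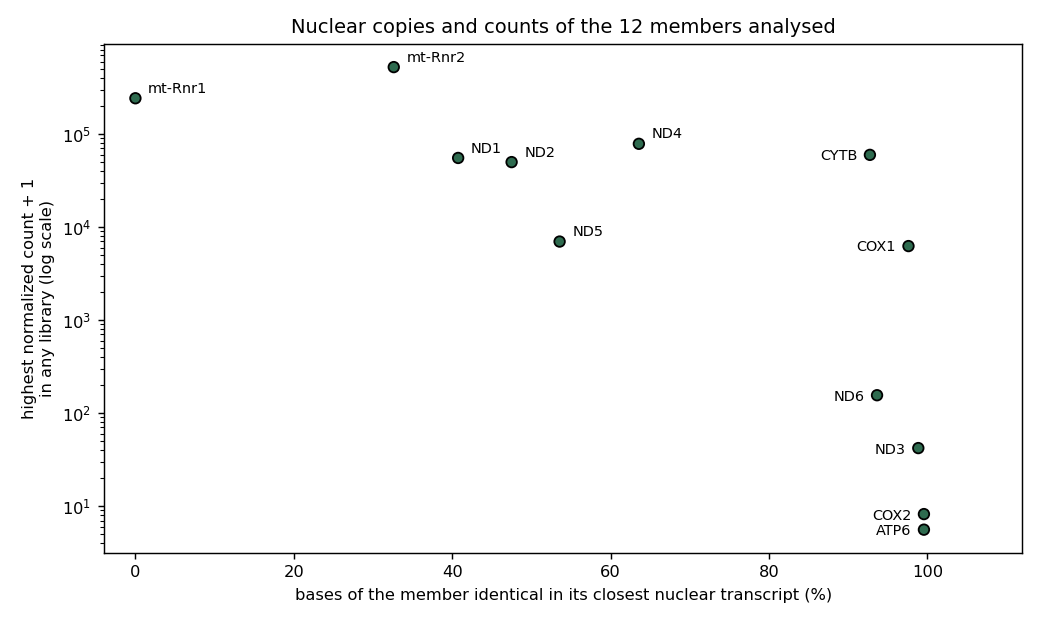
Highest normalized count plus 1 in any library (log scale) against the percent of each member's bases that are identical in its closest annotated nuclear transcript, 1 point for each of the 12 members analysed. ND3, COX2 and ATP6, the members nearest to full identity, had the lowest counts. COX1, at 97.61%, reached 6234.

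The libraries held 1543208 to 2239073 reads, recovered from the normalized counts. The 6 hepatocyte markers summed to 80481 normalized counts or more in every liver library and to at most 4748 in gWAT. That highest gWAT sum was in a male nicotine library, against 561 to 913 in male gWAT controls, and its part in the mitochondrial values was not tested. Adipocyte markers summed to 16413 or more in every gWAT library and to at most 240 in liver, where 5 of the 6 were in the tables. Of the genes tested, those with a mean of 10 normalized counts or more, 25.2% passed limma at an adjusted p of 0.05 in female gWAT, 3.28% in female liver, 0.055% in male liver and 0% in male gWAT, and these are the backgrounds for the counts of members below. In male gWAT 182 genes (1.62%) had an unadjusted p under 0.05, and edgeR and DESeq2 on the recovered reads also called 0 genes there.

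The members together took 36.1% ± 5.75 of reads in female gWAT nicotine libraries and 17.5% ± 2.51 in control libraries (SD, n = 5 each). By library the share was 39.9%, 42.0%, 30.2%, 38.7% and 29.7% after nicotine, against 19.8%, 17.4%, 18.7%, 18.4% and 13.3% in controls, so every nicotine library lay above every control library. In female liver the share was 24.1% ± 1.18 and 26.0% ± 0.737, in male liver 20.1% ± 1.56 and 21.4% ± 0.688, in nicotine and control libraries (SD, n = 5 each). In male gWAT it was 10.2% ± 3.55 (SD, n = 5) after nicotine and 10.9% ± 1.33 (SD, n = 4) in controls. The 2 groups overlapped in each of these 3 tables. The difference in female gWAT was 18.6 percentage points, of which mt-Rnr2 made up 11.8, mt-Rnr1 4.03 and the protein-coding transcripts 2.79. These shares hold mt-Rnr2 and are a description. Being shares of bulk tissue RNA, they cannot tell more mitochondrial RNA per cell from more cells rich in it, here or in the results below. Because the libraries read 3′ tags of polyA RNA, total rRNA was not measured.

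**Figure D2:**
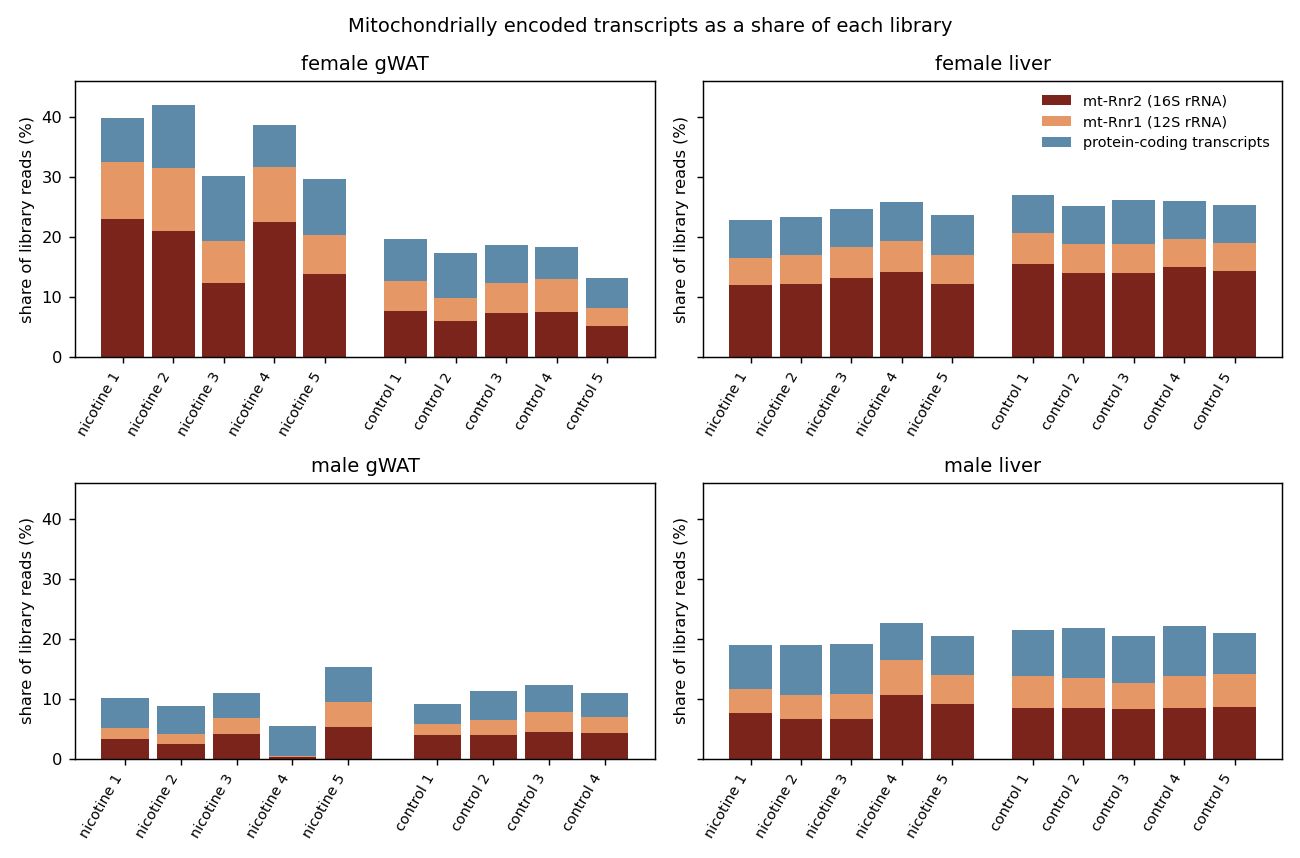
Share of each library's reads (%) taken by mt-Rnr2, mt-Rnr1 and the protein-coding members, stacked, with nicotine libraries left of control libraries in each of the 4 tables. Female gWAT nicotine libraries reach 29.7% to 42.0%, against 13.3% to 19.8% in their controls, and male gWAT nicotine library 4 has almost no rRNA.

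Ordered by mean share, the 8 groups ran from female gWAT nicotine through female liver control, female liver nicotine, male liver control, male liver nicotine, female gWAT control and male gWAT control to male gWAT nicotine. Female gWAT nicotine libraries (29.7% to 42.0%) did not overlap the next group, female liver control (25.2% to 27.1%). The female liver groups overlapped each other (22.9% to 25.8% after nicotine), the male liver groups did so too (19.1% to 22.7% after nicotine and 20.4% to 22.2% in controls), and male liver nicotine overlapped female gWAT control. Male gWAT lay apart below (5.54% to 15.3% after nicotine and 9.13% to 12.3% in controls), except for 1 nicotine library within the range of female gWAT control. The tables were normalized separately and this order was not tested.

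In female gWAT both rRNAs were higher after nicotine in every library. Mt-Rnr2, the 16S rRNA, had 472871, 489560, 253734, 522741 and 246502 normalized counts in the nicotine libraries, against 143256, 98995, 121740, 123493 and 78102 in the controls. Its lowest nicotine library stood clear of its highest control library, and its mean was 3.51-fold that of the controls (log2 change 1.77, SE 0.43, no test given). Mt-Rnr1, the 12S rRNA, had 193126, 241830, 140126, 216327 and 116435 normalized counts after nicotine, against 92100, 65015, 82469, 89350 and 44816 in controls. The 2 groups did not overlap, and mt-Rnr1 rose by 1.28 on the log2 scale (SE 0.38, limma adjusted p = 0.0251 over all 10532 genes tested). The call for mt-Rnr1 ended without control 2 (adjusted p = 0.0577), control 5 (0.0689), nicotine 2 (0.0611) or nicotine 4 (0.0532), with a log2 change of 1.10 or more in each. Within a library the 16S rRNA had gained more than the 12S rRNA: the ratio of mt-Rnr2 to mt-Rnr1 reads was 2.45, 2.02, 1.81, 2.42 and 2.12 after nicotine, against 1.56, 1.52, 1.48, 1.38 and 1.74 in controls. Its groups did not overlap, which is a description only, since the ratio holds mt-Rnr2.

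Of the 9 members tested in female gWAT other than mt-Rnr2, 4 passed the threshold and all 4 were higher: mt-Rnr1, ND2, ND4 and CYTB. Over all genes 12.4% rose and 12.8% fell, and nothing is read from the members' count, since the set was chosen on this contrast. The median log2 change of the 9 was 0.62, against -0.03 over all genes tested. The complex I subunit ND2 had 20882, 39459, 44710, 27272 and 24249 normalized counts after nicotine, against 18333, 15773, 13812, 11551 and 9900 in controls. All nicotine libraries were above all controls, and the rise was 1.15 on the log2 scale (SE 0.28, limma adjusted p = 0.0104). ND4, another complex I subunit, had 51952, 78326, 67700, 56718 and 51372 normalized counts after nicotine, against 38318, 34437, 29918, 25026 and 23460 in controls. It too did not overlap between groups and rose by 1.02 (SE 0.28, limma adjusted p = 0.0174). ND2 and ND4 passed with any 1 library left out. CYTB, the complex III cytochrome, had 36754, 59594, 46164, 35185 and 40352 normalized counts after nicotine, against 30947, 27249, 24853, 20625 and 18762 in controls. Its groups did not overlap, and it rose by 0.83 (SE 0.27, limma adjusted p = 0.0379). The call for CYTB held without control 1, nicotine 1 or nicotine 4 and ended with any 1 other library left out, at an adjusted p of 0.0553 to 0.0959. Of all genes tested, 8.48% had every nicotine library above every control library. Quantile normalization gives every library the same values by rank, so it cannot show a change in a gene that keeps its rank. Under it the log2 change of mt-Rnr1 was 0. ND4 (0.28, limma adjusted p = 0.110) and CYTB (0.37, limma adjusted p = 0.0873) did not pass there, while ND2 (0.64, limma adjusted p = 0.0300) did. Without the filter on the mean 0 of the 4 passed.

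The other complex I members did not pass in female gWAT. ND1 averaged 43337 ± 10007 normalized counts after nicotine and 28445 ± 7858 in controls (SD, n = 5 each), a log2 change of 0.62 (SE 0.29, limma adjusted p = 0.135). ND5 averaged 5242 ± 1041 and 3765 ± 956 in nicotine and control libraries (SD, n = 5 each, limma adjusted p = 0.109). ND6, the minus-strand transcript, averaged 107 ± 29.5 after nicotine and 91.7 ± 27.2 in controls (limma adjusted p = 0.486). ND3 averaged 19.6 ± 13.6 after nicotine and 18.3 ± 9.73 in controls (limma adjusted p = 0.996). COX1, the complex IV catalytic subunit, averaged 4667 ± 1007 after nicotine and 3132 ± 697 in controls (SD, n = 5 each), a log2 change of 0.58 (SE 0.21, limma adjusted p = 0.0565). It passed without control 1 (adjusted p = 0.0334) or nicotine 4 (0.0450). COX2 was at most 7.21 normalized counts and ATP6 at most 4.59, both too low to test. In the authors' deposited table, 6 members other than mt-Rnr2 had an adjusted p under 0.05 in female gWAT, the 4 above with ND1 and COX1. Over all genes, the authors' adjusted p was under 0.05 for 2903 in female gWAT, where 17140 genes were listed. Nothing particular to the members is read from this count.

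**Figure D3:**
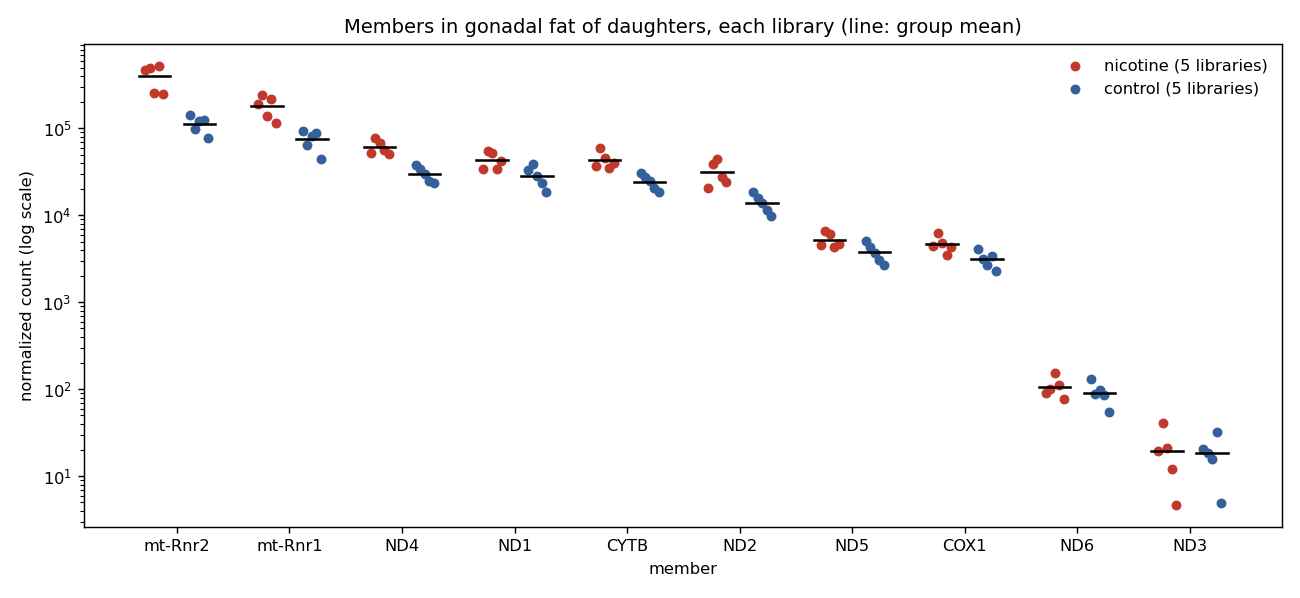
Normalized count (log scale) of the 10 members tested in female gWAT, 1 point per library, nicotine left of control, with a line at each group mean. Mt-Rnr2, mt-Rnr1, ND4, CYTB and ND2 do not overlap between groups, while ND1, ND5, COX1, ND6 and ND3 do.

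Cell type markers were summed in the same female gWAT libraries. Over all genes tested there 12.4% rose and 12.8% fell, and nothing particular to the markers is read from their counts. The summed brown adipocyte markers (5 of 6 in the table, Zic1 not among them) ranged from 276 to 4431 normalized counts after nicotine and from 377 to 1148 in controls. Of the 5 tested, 0 passed, and 4 had the higher mean after nicotine. Ucp1, the uncoupling protein, had 578, 593, 1510, 33.7 and 553 after nicotine, against 185, 147, 191, 61.4 and 0.828 in controls, and did not pass (log2 change 2.80, SE 1.18, limma adjusted p = 0.0953). The summed macrophage markers (5 of 6 in the table) ranged from 62.5 to 168 after nicotine and from 242 to 592 in controls, and 3 of the 3 tested fell, among them Csf1r, the receptor for macrophage growth factor (log2 change -1.83, SE 0.27, limma adjusted p = 0.000459). The summed erythroid markers ranged from 526 to 2417 and from 1455 to 5612, and the summed adipocyte markers from 20080 to 31895 and from 21201 to 47534, in nicotine and control libraries. Of 5 erythroid markers tested 1 fell. Of 6 adipocyte markers tested 1 rose, and 2 of the 6 had the higher mean after nicotine. Skeletal muscle markers summed to 13.2 to 1384 after nicotine and 38.9 to 25160 in controls, the highest being control 2, and 0 of 9 tested passed. Malat1, a nuclear long noncoding RNA, ranged from 14709 to 25180 after nicotine and from 12728 to 15862 in controls and did not pass (limma adjusted p = 0.132). It came from a list of 10 noncoding and other RNAs read as signs of RNA class, of which 8 were in the table and 1, Malat1, had the higher mean after nicotine. Of the 6 tested, 0 rose and 2 fell, Gm26917 (log2 change -1.03, limma adjusted p = 0.0126) and the noncoding RNA Meg3 (log2 change -0.66, limma adjusted p = 0.0244). The part of these markers in the mitochondrial values was not tested.

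Nuclear genes that make, process or translate mitochondrial RNA are given by their counts in female gWAT, where 12.4% of all genes rose and 12.8% fell, and nothing particular to these lists is read from the counts. The coactivators Ppargc1b and Ppargc1a, which drive mitochondrial biogenesis, rose, and the other 3 tested of the 5 biogenesis regulators did not pass. Ppargc1b averaged 180 ± 41.8 normalized counts after nicotine and 37.3 ± 16.5 in controls (SD, n = 5 each), a log2 change of 2.35 (SE 0.31, limma adjusted p = 0.000236), and Ppargc1a averaged 58.7 ± 22.3 and 18.5 ± 9.06 (log2 change 1.64, SE 0.33, limma adjusted p = 0.00301). Of 8 transcription and nucleoid genes tested, 1 fell: Tfam, which packages mitochondrial DNA and starts its transcription, averaged 90.3 ± 14.8 after nicotine and 138 ± 23.8 in controls (log2 change -0.60, SE 0.17, limma adjusted p = 0.0207, and 0.0508 without control 2). Of 20 RNA processing and turnover genes, 5 rose and 1 fell.

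Among the processing genes that rose were Pnpt1, the mitochondrial polynucleotide phosphorylase (26.1 ± 6.16 normalized counts after nicotine and 10.6 ± 3.78 in controls, limma adjusted p = 0.0113), and its partner helicase Supv3l1 (19.2 ± 5.80 and 8.56 ± 4.70, limma adjusted p = 0.0481). Lactb2, a mitochondrial endoribonuclease, averaged 68.8 ± 22.0 after nicotine and 25.5 ± 10.1 in controls (limma adjusted p = 0.00416). Tbrg4, a FASTK family RNA-binding protein (log2 change 1.26), and Rexo2, an oligoribonuclease (log2 change 0.51), rose as well. Slirp, the partner of LRPPRC in keeping mitochondrial mRNAs stable, fell by 0.62 on the log2 scale (limma adjusted p = 0.0401). With 1 library left out, Slirp failed to pass except without control 5 or nicotine 3 (adjusted p up to 0.0929), and Supv3l1 except without control 2 or nicotine 5 (up to 0.11). Rexo2 failed to pass without control 1, control 3, nicotine 2 or nicotine 4 (0.0566 to 0.0639).

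Of 17 genes for rRNA modification and ribosome assembly 1 fell: Malsu1, an assembly factor of the large subunit, averaged 68.9 ± 5.16 normalized counts after nicotine and 154 ± 34.0 in controls (log2 change -1.12, SE 0.19, limma adjusted p = 0.00100). Of 10 translation factors 2 rose, the initiation factor Mtif2 (log2 change 1.34, limma adjusted p = 0.00102) and Taco1, which promotes COX1 translation (log2 change 2.07, limma adjusted p = 0.00333). Of 73 mitochondrial ribosomal protein genes 17 rose and 7 fell, with a median log2 change of 0.22. Of 77 nuclear-encoded respiratory chain subunits 9 rose and 16 fell, with a median of -0.11, against -0.03 over all genes tested.

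In female liver mt-Rnr1 differed by less than the spread between libraries, and the mRNAs lay on both sides of their controls. Mt-Rnr2 had 230817, 233743, 257695, 282178 and 236223 normalized counts after nicotine, against 314731, 281710, 278622, 294062 and 281862 in controls (log2 change -0.23, SE 0.14, no test given). All but 1 of the nicotine libraries lay below every control. Mt-Rnr1 averaged 95117 ± 6441 after nicotine and 94959 ± 5636 in controls (SD, n = 5 each, limma adjusted p = 0.996). The ratio of mt-Rnr2 to mt-Rnr1 reads was accordingly lower after nicotine in every library, at 2.66, 2.57, 2.61, 2.73 and 2.47, against 3.03, 2.97, 2.92, 3.28 and 3.10 in controls. This is the opposite direction to female gWAT, and the difference between the tissues was not tested.

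Of the 9 members tested in female liver other than mt-Rnr2, 2 passed, ND5 lower and ND3 higher, where 1.67% of all genes fell and 1.61% rose. ND5 had 4768, 4519, 5311, 5124 and 4472 normalized counts after nicotine, against 6972, 5960, 6047, 5795 and 6125 in controls. All nicotine libraries lay below all controls, and ND5 fell by 0.35 on the log2 scale (SE 0.08, limma adjusted p = 0.0218). The call ended without control 1 (adjusted p = 0.0641), control 5 (0.0587), nicotine 2 (0.0512) or nicotine 5 (0.0574). ND3 had 12.8, 8.56, 17.2, 20.7 and 31.0 normalized counts after nicotine, against 0.971, 7.72, 8.63, 5.71 and 5.46 in controls, so the groups overlapped at a few reads per library. It rose by 1.57 on the log2 scale (SE 0.42, limma adjusted p = 0.0444) but did not pass without control 1 (0.0817), control 4 (0.0673), control 5 (0.0841), nicotine 1 (0.0573), nicotine 3 (0.0836) or nicotine 4 (0.109), and without nicotine 5 its mean fell under the limit for testing. ND2 had 36619, 35749, 29427, 35545 and 35825 after nicotine, against 41910, 39945, 44127, 37389 and 40486 in controls. Its groups did not overlap, like 2.49% of all genes in that direction, but it did not pass (log2 change -0.24, SE 0.10, limma adjusted p = 0.233). ND1, ND4, ND6, CYTB and COX1 overlapped between groups, with log2 changes of -0.35 to 0.11. Of the members other than mt-Rnr2, ND5 alone had an adjusted p under 0.05 in the authors' deposited table, with a log2 fold change of -0.34. Over all genes, the authors' adjusted p was under 0.05 for 316 in female liver, where 14781 genes were listed.

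Few genes of the nuclear lists passed in female liver. Of 74 respiratory chain subunits and of 74 mitochondrial ribosomal protein genes 1 each rose, and in the lists for transcription, RNA processing, rRNA modification, translation and biogenesis regulators 0 genes passed. The genes of smallest p in those lists were Tfb2m and Ssbp1, Pnpt1 and Lactb2, Mpv17l2 and Ddx28, Gfm2 and Mtrf1l, and Ppargc1a and Gabpa, and the lowest limma adjusted p among them was that of Pnpt1 (log2 change 0.53, adjusted p = 0.112). Skeletal muscle transcripts summed to 318 in nicotine library 5 and 195 in control library 4, against at most 18.7 elsewhere, and without these libraries together neither ND5 (adjusted p = 0.0850) nor ND3 (0.146) passed.

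In male liver 0 of the 8 members tested other than mt-Rnr2 passed, where limma called 5 genes (0.055%) in all. Of the 8, 0 also had an unadjusted p under 0.05, as 14.5% of all genes did, and 0 passed with edgeR or DESeq2. Mt-Rnr2 had 113265, 127360, 130046, 212446 and 140919 normalized counts after nicotine, against 165792, 161716, 151895, 162104 and 168618 in controls (log2 change -0.20, SE 0.31, no test given; -0.11 when scaled to genes other than the members). On this scale 4 of the nicotine libraries lay below every control and library 4 above every control. As a share of reads, mt-Rnr2 exceeded every control (8.42% to 8.72%) in nicotine libraries 4 (10.6%) and 5 (9.15%). Its share lay below every control in nicotine libraries 1, 2 and 3. The summed signal of genes other than the members was 1202093 for nicotine library 1 and 1224514.5 for nicotine library 5. Elsewhere in male liver this sum was 1435890 or more. Mt-Rnr1 averaged 81626 ± 22218 after nicotine and 95440 ± 10312 in controls (SD, n = 5 each, limma adjusted p = 0.713). ND5 had a log2 change of -0.34 (SE 0.18, limma adjusted p = 0.399), and did not pass. Nicotine library 4 also held skeletal muscle transcripts summing to 6847 normalized counts, against at most 8.44 elsewhere, and nicotine library 2 pancreatic acinar transcripts summing to 7616, against at most 3.84 elsewhere. Their part in the mitochondrial values was not tested. Without nicotine libraries 2 and 4 together, an alternative chosen after seeing the data, the log2 change of mt-Rnr2 was -0.34 and 0 members passed. Without nicotine libraries 1 and 5 together, those with the low sums above, the log2 change of mt-Rnr2 was -0.09, also with 0 members passing. In the nuclear lists 0 genes passed in male liver. Those of smallest p were Tfb2m and Ssbp1, Lactb2 and Grsf1, Tfb1m and Malsu1, Mtif3 and Tufm, and Ppargc1b and Esrra, of which Lactb2 had the lowest limma adjusted p (log2 change -0.42, adjusted p = 0.202).

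In male gWAT 0 of the 9 members tested other than mt-Rnr2 passed, 0 had an unadjusted p under 0.05 (1.62% of all genes did), and 0 passed with edgeR or DESeq2. Mt-Rnr2 had 60582, 43156, 68443, 5438 and 108776 normalized counts after nicotine, against 70842, 65986, 78006 and 72784 in controls (log2 change -0.83, SE 0.75, no test given), and edgeR gave -0.32 and DESeq2 -0.33. The nicotine libraries lay both above and below the narrow control range, and library 4 far below. Mt-Rnr1 had 31678, 27220, 43152, 1660 and 88439 after nicotine, against 35724, 43873, 60314 and 42523 in controls (log2 change -1.01, SE 0.94, limma adjusted p = 0.9996). Without nicotine library 4 its log2 change was -0.07, and with all libraries edgeR gave -0.24 and DESeq2 -0.25. ND1, ND2, ND4, ND5, CYTB and COX1 had log2 changes of 0.04 (ND5) to 0.45 (ND4), and 0 of them passed. ND3 had a log2 change of 0.50 (SE 0.68) and ND6 of -0.59 (SE 0.70), which was 0.12 without nicotine library 4, and neither passed (limma adjusted p = 0.9996 for both).

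Nicotine library 4 of male gWAT stood apart in the composition of its mitochondrial RNA. Its rRNA share was 0.454% of reads, against 4.21% to 9.58% in the other nicotine libraries and 5.92% to 7.89% in controls, while its protein-coding share of 5.08% was exceeded in the table by nicotine library 5 alone (5.71%). ND4 was at 39803 normalized counts, above every other male gWAT library, and 7 members, among them both rRNAs, ND2, ND5 and ND6, were below every other. ND6 was at 3.63 normalized counts, against 32.9 to 71.0 in the rest of the table. Malat1 was at 659 in this library, against 5858 to 15222 in the other nicotine libraries and 7970 to 17614 in controls. Neat1, another nuclear noncoding RNA, was at 3619, within the range of the others. Without this library the log2 change of mt-Rnr2 in male gWAT was -0.11 and the difference in mitochondrial share 0.418 percentage points, against -0.744 with it. Epididymal transcripts were high in nicotine library 1 (52755 summed normalized counts) and in control 1 (66432), and the mitochondrial values without both stand with the processing results. In the nuclear lists 0 genes passed, all at a limma adjusted p of 0.9996. Those of smallest p were Ssbp1 and Polrmt, Ptcd2 and Hsd17b10, Rpusd3 and Ddx28, Tsfm and Mtif3, and Ppargc1a and Ppargc1b.

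**Figure D4:**
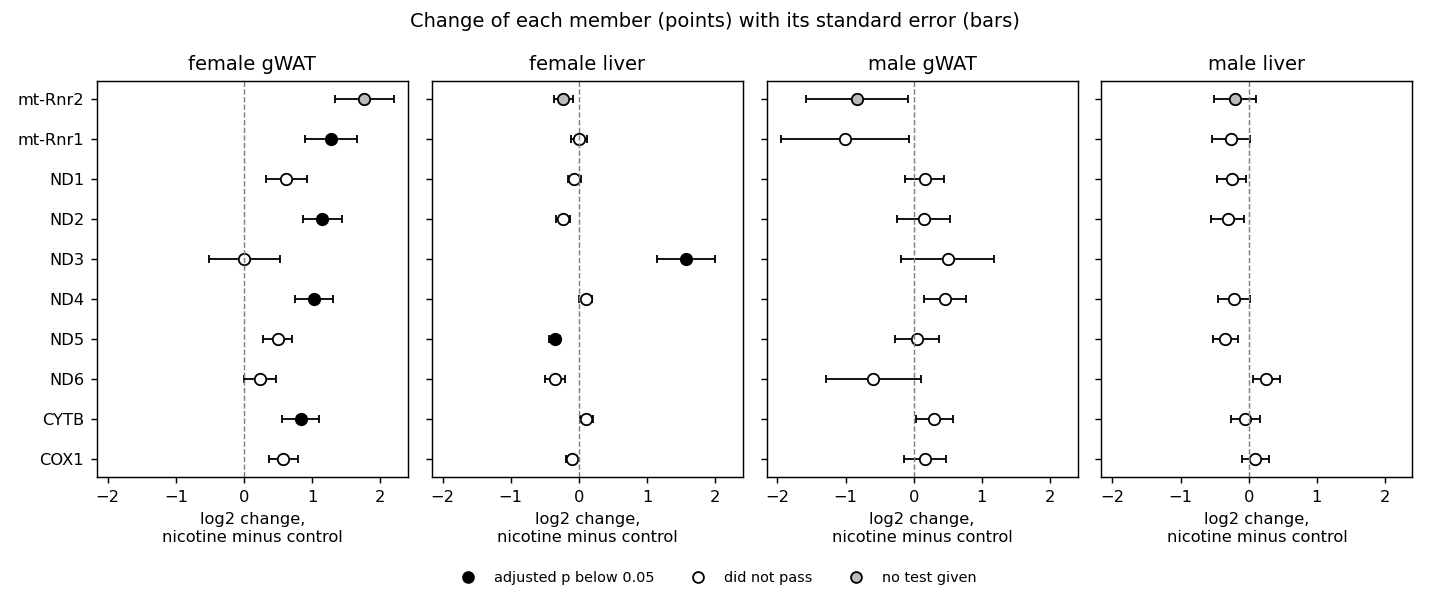
Log2 change (nicotine minus control, on log2 of normalized count plus 1) of each tested member in each table, with its standard error. Filled points passed an adjusted p of 0.05, open points did not, and grey points are mt-Rnr2, which is given with no test. In female gWAT 4 members passed, in female liver 2, and in male gWAT and male liver 0.

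Whether the change differed between daughters and sons was tested for each member as the female change minus the male change, with limma over all genes tested in both tables of a tissue. In gWAT 0 of 9 members other than mt-Rnr2 passed, where 8.87% of 10042 genes did. In liver 0 of 8 passed, where 1.56% of 8699 genes did. Among members other than mt-Rnr2, the largest differences in gWAT were those of mt-Rnr1 and ND2. For mt-Rnr1 a female change of 1.28 set against a male change of -1.01 gave 2.28 (SE 1.03, limma adjusted p = 0.162). Without male gWAT nicotine library 4 this difference was 1.35 (limma adjusted p = 0.168). ND2, at 1.15 against 0.15, gave 1.00 (SE 0.49, limma adjusted p = 0.204). For mt-Rnr2 the female and male changes in gWAT were 1.77 and -0.83, a wider difference of 2.60 (SE 0.90, no test given). In liver the widest was ND6, at -0.35 in females and 0.26 in males (difference -0.61, SE 0.25, limma adjusted p = 0.233). The female and male changes of these members are therefore not shown to differ, nor to be alike.

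**Figure D5:**
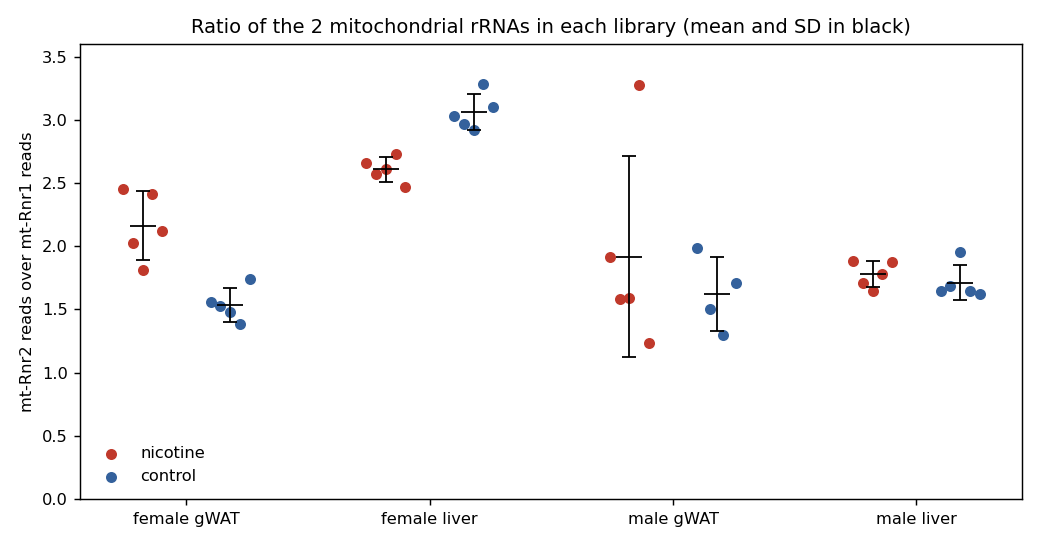
Ratio of mt-Rnr2 reads to mt-Rnr1 reads, 1 point per library, nicotine left of control in each table, with mean and SD in black. Nicotine libraries lie above controls in female gWAT and below them in female liver, and the male groups overlap.

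The ratio of the rRNAs also differed by table. Averages were 2.16 ± 0.27 and 1.54 ± 0.133 in female gWAT, 2.61 ± 0.0977 and 3.06 ± 0.142 in female liver, and 1.78 ± 0.103 and 1.71 ± 0.138 in male liver, in nicotine and control libraries (SD, n = 5 each). In male gWAT it was 1.92 ± 0.797 (SD, n = 5) after nicotine and 1.62 ± 0.295 (SD, n = 4) in controls, with 3.28 in nicotine library 4. Female liver libraries, at 2.47 or more, lay above all male liver libraries, at 1.95 or less, a difference between tables that was not tested.

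The genes whose values followed mt-Rnr2 most closely were found by the Pearson correlation of log2 values, each library minus its group mean, over 39 libraries and 5640 genes with a mean of 20 or more in every table. Mt-Rnr1 came first (r = 0.98), followed by Mllt10 (0.89), 2900060B14Rik (0.89), Arid4b (0.88) and Malat1 (0.87). Libraries share their size factor in these values, and no p is given. Without male gWAT nicotine library 4, an alternative chosen after seeing the data, mt-Rnr1 stayed first (0.91) and 2900060B14Rik second (0.70), while Mllt10 was at 0.47, Arid4b at 0.41 and Malat1 at 0.37. The protein-coding members were less close to mt-Rnr2 across those 38 libraries, from 0.16 for ND4 and 0.20 for ND2 to 0.46 for COX1.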

How the data were processed

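Per the labels' protocols, polyA RNA was extracted with a column kit and read as 3′ tags. Per the submitters' processing notes, reads were trimmed with cutadapt, aligned to mm10 with STAR and normalized with DESeq2, with versions, counting rule and strand setting not given in the sources used here. The 4 deposited tables, 1 per tissue and sex, hold normalized counts per gene (signal scaled by the authors' size factors) in 39 library columns, with the authors' mean, log2 fold change, p-value and adjusted p-value. The standard error, a score the authors deposited beside each fold change, was not used. No gene totals under 10 reads in a table. Dividing each column by its smallest value above 0 gave whole reads for 100% of values within 0.1 of a read.

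The main test, within each table, was limma 3.58.1 (R 4.3.3, trend option) applied to log2 of the normalized count plus 1, on genes with a mean of 10 or more, Benjamini-Hochberg adjusted over all tested genes, two-sided, at 0.05. A fold change on this scale understates the change of low genes. The test was not a count test because the deposited values are scaled. edgeR 4.0.16 and DESeq2 1.42.0 were run on the recovered reads as alternatives, with other pseudocounts, filters and scalings, a replicate block and left-out libraries. Shares are a member's reads over all reads of a library, and intervals between libraries are SDs. Nuclear copies were searched with blastn 2.17.0 in GENCODE M21 transcripts. The main limma fit and the edgeR and DESeq2 fits within each table, and the limma test of the sexes in liver, were run on simulated data. The other fits were not. No pair of libraries in a group agreed within sampling noise (76 pairs, lowest chi-square per degree of freedom 2.26). Replicate numbers are not stated to pair animals. Same-numbered nicotine and control libraries were compared in female gWAT, female liver and male liver, with correlations of -0.277 to 0.173. So few pairs cannot exclude pairing, and pairing between tissues or sexes was not checked.

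All members are described. Of the nuclear lists, genes past the threshold are named, or with none the 2 of smallest p, and ribosomal and respiratory chain genes are counted only. Members and lists were chosen with earlier results of these data known, and the epididymal marker list after seeing these libraries. Figures were drawn with matplotlib 3.10.9.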

Additional observations from a re-analysis of the deposited data

Results flagged for a closer look

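ND2 was lower after nicotine in every female liver library and higher in every female gWAT library. The mean difference was -6138 normalized counts in liver and 17441 in gWAT, and the difference between the tissues was not tested. ND2 did not pass in female liver (limma adjusted p = 0.233), where 2.49% of all genes had every nicotine library below every control. In female gWAT 8.48% had every nicotine library above.

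The ratio of mt-Rnr2 to mt-Rnr1, nicotine minus control, was -0.452 in female liver and 0.628 in female gWAT, with no overlap between groups in either tissue. The ratio holds mt-Rnr2, whose nicotine contrast chose the set, so this is a description, and the contrast of tissues was not tested.

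In 9 of 122 groups of values (a member or a summary in 1 group of 4 or 5 libraries) 1 library lay far from the others, where chance gives about 1 in 20. In female liver these were control 3 in CYTB (24178 normalized counts), in ND4 (36662) and in the protein-coding share (7.18% of reads), control 1 in ND5 (6972) and nicotine 3 in ND2 (29427). In male liver they were nicotine 4 in mt-Rnr2 (212446), the library with 6847 skeletal muscle counts, and control 3 in the ratio of mt-Rnr2 to mt-Rnr1 (1.95). In female gWAT it was nicotine 1 in ATP6 (4.59 normalized counts), and in male gWAT control 2 in the ratio of rRNA to protein-coding reads (1.38).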

How the results depend on the processing

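In female gWAT the number of members called, 4, became 0 without the filter on the mean and 1 (ND2) with the replicate block, where mt-Rnr1 (adjusted p = 0.0767), ND4 (0.0682) and CYTB (0.108) did not pass. The numbers are not stated to pair animals. Same-numbered nicotine and control libraries of female gWAT correlated from -0.277 to 0.173, and 1 of 5 correlated best with its own number, which cannot exclude pairing. With 1 library left out, 2 to 5 members were called there, and 0 to 2 in female liver (2 in the report). In female liver the count was 1 with a mean of 50 or more, which drops ND3, 1 with DESeq2 on the recovered reads, and 0 without control 4 and nicotine 5 together. In liver the block gave 2 members in females and 0 in males, as without it. No paired analysis was possible for male gWAT because its control columns carry no sample numbers. Quantile normalization gave mt-Rnr2 a log2 change of 0 in female gWAT, female liver and male liver by construction, since mt-Rnr2 is the most counted gene of every one of those libraries and so gets the same value in each. The log2 change of mt-Rnr1 was also 0 in each of these tables, as for a gene that keeps its rank. In female gWAT quantile normalization left 3 members called, ND2, COX1 and ND5, of which ND2 was among the 4. The difference in mitochondrial share was 36.2 percentage points in female gWAT and -3.36 in female liver when taken as a percent of all other genes, and 2.79 and -0.125 with the protein-coding members only. DESeq2 on the recovered reads called 186 genes in male liver, against 5 with limma and 3 with edgeR. The 5 of male liver became 0 with the replicate block or a mean of 50 or more, 2 when scaled to genes other than the members, 0 to 16 with 1 library left out and 54 without nicotine 2 and 4 together. Over all genes, the 301 calls of female liver became 185 without control 5, 195 without nicotine 4 and 181 without control 4 and nicotine 5 together. The 136 of the test of the sexes in liver became 247 with DESeq2 and 71 to 280 with 1 library left out, and the 891 of gWAT fell to as few as 448 (without male control 4). edgeR called 2560 genes in female gWAT, 301 in female liver and 0 in male gWAT. In both male tables and both tests of the sexes, 0 members passed under every alternative run. Left-out libraries moved the log2 change of mt-Rnr2 between 1.64 and 1.92 in female gWAT, -0.276 and -0.199 in female liver, -0.345 and -0.118 in male liver, and -1.19 and -0.112 in male gWAT, where the share difference lay between -2.02 and 0.418. Without control 1 and nicotine 1 of male gWAT, chosen after seeing the data, they were -0.99 and -1.33, with 0 members called. ND3, COX2 and ATP6 had at most 41.1 normalized counts, so their values rest on few reads.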
